A study of Rattus norvegicus with 12 samples.

Results

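The genes described here are 77 rat potassium channel genes outside the main BK, GIRK and SK channel genes, measured by RNA sequencing (RNA-Seq) in the central nucleus of the amygdala (CeA). They were chosen by name and depth. Of 94 listed genes whose symbol starts with *Kcn*, 12 were set aside by name (*Kcnma1*, *Kcnmb2*, *Kcnmb4*, *Kcnj3*, *Kcnj5*, *Kcnj6*, *Kcnj9*, *Kcnn1*, *Kcnn2*, *Kcnn3*, *Kcnj8* and *Kcnj10*), and 5 did not reach 10 counts in 6 of the 12 rats. The rule uses no difference between the groups, but it was set with earlier results of these data known. The 77 genes are part of 37209 genes listed, of which 20944 had enough counts to be tested, and all 77 were among those tested. They fall into 13 families, with *Kcnrg* outside them.

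Poly-A RNA was sequenced from the CeA of 6 rats of the chronic intermittent ethanol (CIE) group and 6 of the Control group, 1 library per rat. All were wild type male Sprague Dawley rats aged 14 to 16 weeks. The CIE rats had breathed ethanol vapor daily for several weeks and the Control rats air, and both were killed under isoflurane when the last exposure ended. All 12 sample titles carry the letters CIE, and the groups are taken from the treatment label. The tissue was punched from sections of 1 hemisphere, and a punch holds every cell type of the region and can hold some of its neighbours.

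Potassium channels let potassium leave or enter a cell through a selective pore. Voltage-gated channels end action potentials and set firing patterns, inward rectifiers and leak channels hold the resting potential, and accessory subunits change where a channel sits and how it opens. In the CeA, a nucleus made largely of GABA neurons, such currents set how readily a neuron fires. In glia, inward rectifiers and leak channels serve the uptake of potassium.

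Total counts per library lay between 39082548 and 95647601. All 12 markers listed for CeA neurons, among them *Gad1*, *Prkcd* and *Crh*, had enough counts to be tested. Markers of neighbouring regions differed widely between rats. The 10 markers of striatal projection neurons summed to between 721 and 4182 CPM (a gene's count per fixed library total, TMM-normalized) in the CIE rats and between 420 and 4613 CPM in the Control rats. The 10 markers of cortical glutamatergic neurons summed to between 623 and 1314 CPM and between 547 and 1226 CPM. Both the striatal and the cortical ranges overlapped between the groups. The cortical list had a median log2 fold change, CIE minus Control (log2FC), of 0.81, with 1 of 10 markers higher and none lower at nominal p below 0.05. The striatal list had a median of 0.23, with none past that threshold. The CeA neuron list had a median of -0.06, with 2 of 12 markers lower, *Crh* (log2FC -0.45) among them, and none higher. Control rat 10 and CIE rat 2 had the highest striatal marker scores (mean log2 CPM of the list, 8.22 and 8.11), followed by CIE rat 4 (7.17). Control rat 10 held the highest or lowest value of the 12 in 26 of the 77 potassium channel genes (33.8%, all genes 26.1%). CIE rat 2 did so in 18 (23.4%, all genes 17.8%) and CIE rat 4 in 8 (10.4%, all genes 11.1%). Control rat 8, with the lowest striatal score (4.79), did so in 21 (27.3%, all genes 14.8%), and CIE rat 3 in 19 (24.7%, all genes 29.6%).

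Of the 77 potassium channel genes, 1 (1.30%) passed a nominal p threshold of 0.05 between CIE and Control, compared with 8.31% of all genes tested. That gene was *Kcne1l*, lower in the CIE group. Of the 77, 0 were higher at this threshold, compared with 4% of all genes tested, and the lower share over all genes was 4.31%. At a 5% false discovery rate (FDR) over all genes, edgeR's quasi-likelihood test called 0 of the 77 and 0.363% of all genes. No potassium channel gene had 6 CIE values entirely above or below the 6 Control values, which held for 0.893% of all genes. The order of the nominal shares depended on the tool and on 1 rat. With limma-voom with sample quality weights 16 of the 77 passed (20.8%), compared with 17.2% of all genes, and without Control rat 10 15 passed (19.5%), compared with 11.4% of all genes.

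The precision of this result differed between genes. The 95% interval of the log2FC lay within 0.25 on either side of 0 for 4 genes, within 0.5 for 35 and within 1 for 61. For the other 16 genes the interval reached beyond 1 in at least 1 direction, so a change of that size in that direction is not limited by these data. *Kcne1l*, the gene called, is among these 16, with limits of -1.04 and -0.32. The tightest interval was that of *Kcnab2*, a beta subunit of Kv1 channels, with a log2FC of 0.00 and limits of -0.16 and 0.16. The fold changes leaned above 0 in 52 of the 77 genes (67.5%), compared with 50.3% of all genes tested, and their median was 0.06 compared with 0.00. This lean was smaller without CIE rat 2, where 41 were above and 36 below 0 (48.6% of all genes were above), with a median of 0.0072, whereas without Control rat 10 50 were above and 27 below (52.2% of all genes were above), with a median of 0.07. When both marker scores, cortical and striatal, entered the model, 37 were above and 40 below 0 (48.7% of all genes were above), and the median was -0.01. The part of the cortical markers in this lean was not tested beyond this fit.

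**Figure D1:**
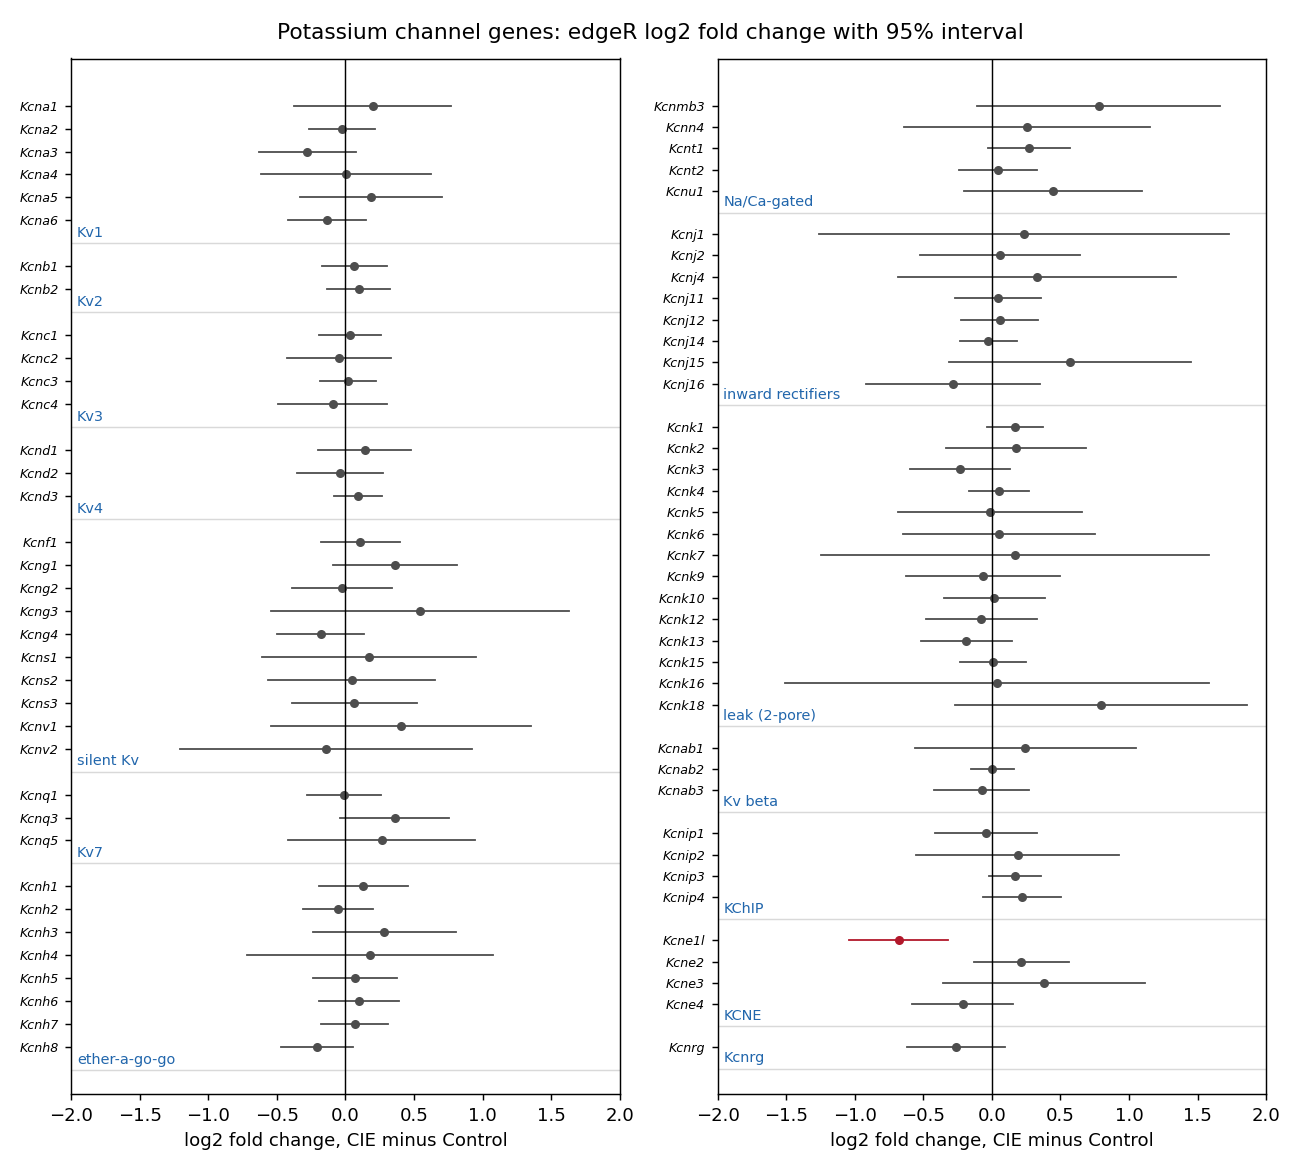
Log2 fold change (CIE minus Control, x axis) of 75 of the 77 potassium channel genes with its 95% interval, grouped by family (blue labels), from edgeR in all 12 rats, where red marks the gene with a nominal p below 0.05. The interval of *Kcne1l* lies wholly below 0, whereas every other interval shown includes 0.

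*Kcne1l*, named *Kcne5* in RefSeq, encodes a single-pass accessory subunit of the KCNE family, which binds voltage-gated channels such as Kv7 channels and alters their gating. In the 6 CIE rats it was at 2.91, 3.33, 5.66, 3.94, 3.89 and 3.34 CPM, and in the 6 Control rats at 4.70, 6.08, 7.80, 6.15, 5.27 and 6.93 CPM, in rat order. CIE rats 1, 2, 4, 5 and 6 were below every Control rat, and CIE rat 3 fell inside the Control range. The means were 3.84 ± 0.969 CPM and 6.16 ± 1.11 CPM (SD, n = 6 each), from 189 to 585 counts per rat. The log2FC was -0.68 (SE 0.17, 95% interval -1.04 to -0.32). edgeR's nominal p was 0.00119, and the exact permutation test of the 6 and 6 CPM values gave p = 0.00649 (two-sided), where 0.00216 is the smallest p it can give. By nominal p, *Kcne1l* ranked 167 among the 20944 genes. In bulk tissue, fewer cells that express a gene and less RNA per cell cannot be told apart.

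The adjusted p of *Kcne1l* crossed the 5% FDR line with the tool and with 1 rat. It was 0.148 with edgeR's quasi-likelihood test, 0.0130 with DESeq2 and 0.0336 with limma-voom with sample quality weights. Leaving out each rat in turn, the nominal p stayed below 0.05 in all 12 fits, and the adjusted p (edgeR) lay between 0.0254, without CIE rat 3, and 0.332, without Control rat 9. It also passed the nominal threshold without Control rat 10 and CIE rat 2 (log2FC -0.64), and with the cortical and striatal scores in the model (log2FC -0.61). Markers of myelinating oligodendrocytes were lower in the CIE group, 9 of 10 at nominal p below 0.05, and summed to between 5718 and 13866 CPM compared with 8759 to 16399 CPM. With the score of that list in the model, *Kcne1l* had a log2FC of -0.94 and an adjusted p of 0.129 (edgeR). Of 10 astrocyte markers, 2 were lower and 1 was higher at nominal p below 0.05, and their sums ranged from 2069.5 to 2674 CPM in the CIE rats and from 2137 to 2526 CPM in the Control rats. The part of astrocytes in the *Kcne1l* result was not tested.

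The promoter of *Kcne1l* is shown as the start region of the only potassium channel gene called. In RefSeq on the GRCr8 build it spans chrX:110727800-110728099 on the minus strand, 250 bases before and 50 after the annotated start. The counts were made on Rnor_6.0, and no read data bear on this region.

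Kcne1l promoter: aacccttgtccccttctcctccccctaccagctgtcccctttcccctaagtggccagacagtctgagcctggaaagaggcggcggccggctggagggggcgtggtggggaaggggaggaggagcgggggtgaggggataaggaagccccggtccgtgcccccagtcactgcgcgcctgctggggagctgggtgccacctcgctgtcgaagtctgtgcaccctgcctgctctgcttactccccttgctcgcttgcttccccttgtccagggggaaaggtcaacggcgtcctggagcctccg

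Its GC content was 67%, compared with a median of 52.3% over 27457 rat promoters of the same length. It held no match on either strand to the cAMP response element TGACGTCA (in 1.91% of promoters), the E-box CACGTG (6.65%), the TATA box TATAAA (14.3%) or the GC box GGGCGG (34.9%). These letters are absent from this window, which says nothing of any factor.

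None of the other KCNE subunits passed the test. *Kcne2* was at 3.31 ± 0.807 CPM in the CIE and 2.86 ± 0.346 CPM in the Control group, and *Kcne4* at 2.19 ± 0.340 and 2.53 ± 0.575 CPM. *Kcne3* was scarcer, with 14 to 112 counts per rat. Their log2FC values of 0.21, -0.21 and 0.38 had 95% intervals that included 0 (-0.13 to 0.56, -0.58 to 0.16 and -0.36 to 1.12). *Kcne1*, the founding member of the family, had at most 6 counts in any rat and was below the count minimum.

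Among the pore-forming voltage-gated channels, none of 38 genes of the Kv1 to Kv4, Kv7, ether-a-go-go and silent Kv families passed edgeR's nominal threshold with all rats. Of all genes tested, 8.31% did. With DESeq2 *Kcnq3* passed (all genes 7.48%). With limma-voom *Kcnq3*, *Kcng3*, *Kcng1*, *Kcnh8*, *Kcnv1*, *Kcna3*, *Kcnq5* and *Kcnh3* were among those that passed (all genes 17.2%).

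The Kv1 genes, mostly delayed rectifiers of axons and nerve terminals, had log2FC values between -0.28 and 0.20 in 6 genes. The smallest p was that of *Kcna3*, at 10.3 to 16.9 CPM in the CIE rats (median 13.1) and at 9.01 to 19.0 CPM in the Control rats (median 17.2). Of the Control rats, 4 were above every CIE rat, while Control rat 10 was the lowest of all 12, so the groups overlapped. With all rats log2FC was -0.28 (SE 0.17, edgeR adjusted p = 0.711). Leaving out Control rat 10 moved it to -0.39 and past the nominal threshold, as did leaving out CIE rat 5.

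Kv2 channels carry the somatic delayed rectifier current, Kv3 channels allow fast firing and Kv4 channels carry the dendritic A-type current. The 2 Kv2 genes had log2FC values of 0.06 and 0.10, the 4 Kv3 genes between -0.09 and 0.03, and the 3 Kv4 genes between -0.04 and 0.14. The smallest p values of these families belonged to *Kcnb2*, *Kcnc4* and *Kcnd3*, with adjusted p values (edgeR) of 0.871, 0.932 and 0.826. Their median within-group SDs of log2 CPM were 0.207, 0.277 and 0.287, below the 0.350 of the 77 genes. *Kcnb2* was at 32.5 to 46.0 CPM in the CIE rats (median 37.3) and at 29.4 to 42.9 CPM in the Control rats (median 36.8). *Kcnc4* ranged from 36.2 to 61.9 CPM (median 53.9) and from 31.4 to 76.6 CPM (median 54.4), and *Kcnd3* from 106 to 133 CPM (median 122) and from 97.4 to 126 CPM (median 114). The groups overlapped over most of their ranges in *Kcnb2* and *Kcnc4*, whereas 3 CIE rats were above every Control rat in *Kcnd3*.

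Kv7 channels carry the M-current, a slow current that restrains repeated firing. *Kcnq3*, a subunit of this current in many neurons, was at 157, 135, 67.3, 144, 91.3 and 117 CPM in CIE rats 1 to 6 and at 92.4, 80.1, 82.0, 129.7, 81.7 and 89.5 CPM in Control rats 7 to 12. CIE rats 1, 2 and 4 were above every Control rat, CIE rat 3 was the lowest of all 12, and Control rat 10 stood above the other Control rats. *Kcnq3* had a log2FC of 0.36 (SE 0.19, 95% interval -0.04 to 0.76, edgeR adjusted p = 0.653). It passed the nominal threshold with DESeq2 (adjusted p = 0.527) and with limma-voom (log2FC 0.54, adjusted p = 0.0977). With edgeR it passed when scaled by library size only and without CIE rat 3, CIE rat 5 or Control rat 10. Its log2FC was 0.48 without rat 3 or rat 10. With both scores in the model its log2FC was 0.04.

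The ether-a-go-go family is named after a fly mutant and includes the Erg and Elk channels. Its 8 genes had log2FC values between -0.21 and 0.28. The smallest p was that of *Kcnh8*, an Elk channel, at 4.48 to 5.72 CPM in the CIE rats (median 4.87) and at 4.06 to 6.86 CPM in the Control rats (median 5.78). Control rat 10 was again the lowest of the 12, and the other 5 Control rats were near or above the top of the CIE range. This gave a log2FC of -0.21 (SE 0.12, edgeR adjusted p = 0.709), which was -0.28 and past the nominal threshold without Control rat 10.

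The silent Kv subunits form no channel of their own and alter Kv2 channels when built into them. Of these 10 genes, *Kcng1* had the smallest p and *Kcng3* the largest fold change. *Kcng1* ranged from 16.3 to 36.1 CPM in the CIE rats (median 27.1) and from 15.3 to 30.5 CPM in the Control rats (median 19.4), with CIE rats 1 and 4 above every Control rat. The difference of 0.36 in log2FC (SE 0.21, edgeR adjusted p = 0.709) passed the nominal threshold without CIE rat 3, CIE rat 5 or Control rat 10. With both the cortical and striatal scores in the model the log2FC of *Kcng1* was 0.05. *Kcng3* ranged from 1.499 to 4.86 CPM (median 2.91) and from 0.415 to 6.13 CPM (median 1.52). The highest *Kcng3* value of all 12 rats was that of Control rat 10, and the other 5 Control rats were at or below 1.91 CPM. A log2FC of 0.54 (SE 0.51, edgeR adjusted p = 0.835) with all rats became 1.26, past the nominal threshold, without Control rat 10.

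**Figure D2:**
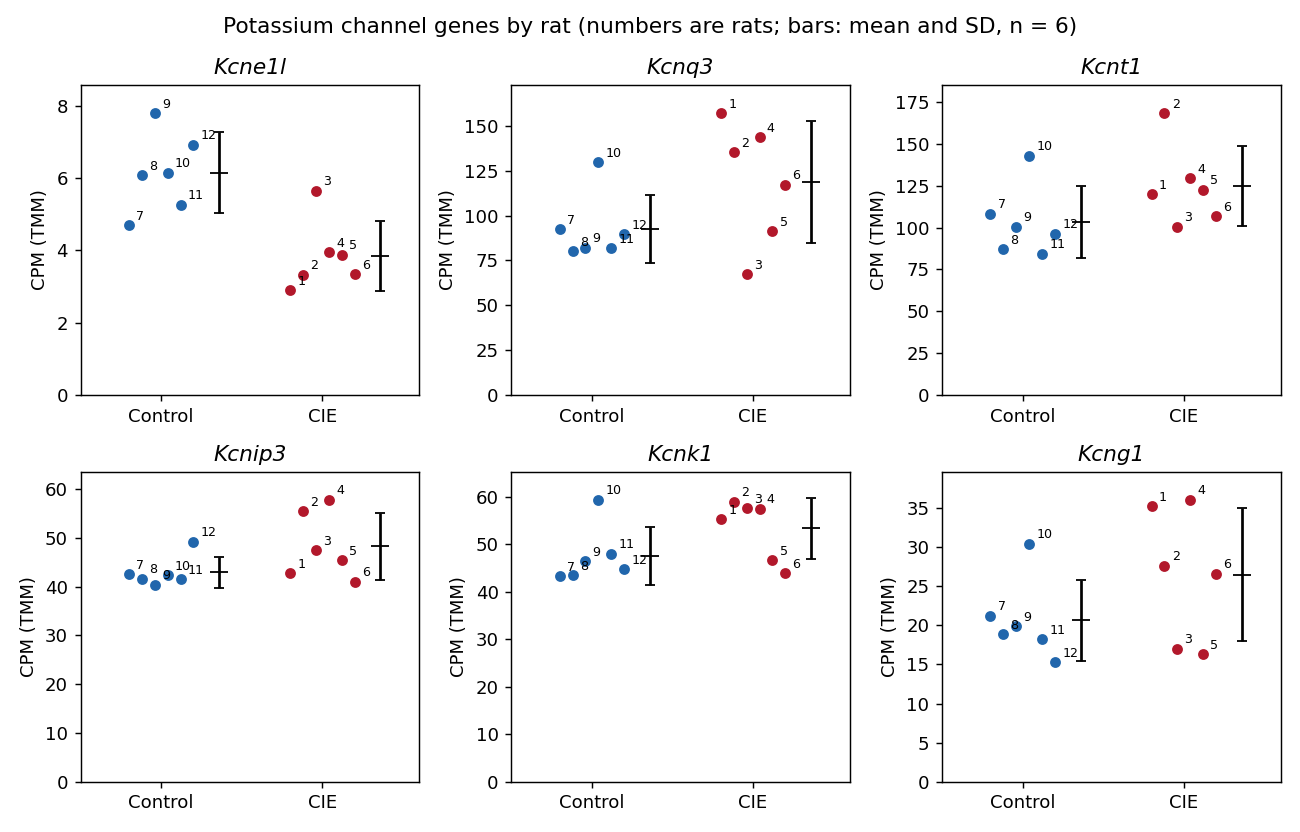
CPM (TMM-normalized, y axis from 0) of 6 potassium channel genes in each Control (blue) and CIE (red) rat, numbered by rat, with the mean and SD of 6 rats beside each group. Only in *Kcne1l* among these 6 do 5 CIE rats lie below every Control rat, and Control rat 10 is the highest Control rat in *Kcnq3*, *Kcnt1*, *Kcnk1* and *Kcng1*.

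The group of channels gated by sodium or calcium was taken to include the BK subunit *Kcnmb3* and the Slo3 channel *Kcnu1*. All 5 of its genes had log2FC values above 0, between 0.05 and 0.78, with none past the test. Of all genes tested, 50.3% were above 0. The means of *Kcnn4*, *Kcnmb3* and *Kcnu1* were below 1 CPM in both groups. *Kcnt1* encodes the sodium-activated Slack channel. It ranged from 100.5 to 168 CPM in the CIE rats (median 121) and from 84.5 to 143 CPM in the Control rats (median 98.5). CIE rat 2 was above every Control rat and Control rat 10 above 5 of the 6 CIE rats. Its log2FC of 0.27 (SE 0.14, edgeR adjusted p = 0.653) passed the nominal threshold without CIE rat 3, CIE rat 6 or Control rat 10. The log2FC was 0.39 without Control rat 10 and 0.14 with both the cortical and striatal scores in the model. *Kcnmb3*, a BK beta subunit that was not among the genes set aside, was scarce, with 7 to 44 counts per rat. It ranged from 0.111 to 0.677 CPM (median 0.392) and from 0.118 to 0.279 CPM (median 0.217). In *Kcnmb3*, 4 CIE rats were above every Control rat and 1 was below them all, and log2FC was 0.78 (SE 0.41, 95% interval -0.11 to 1.67, edgeR adjusted p = 0.665). It passed the nominal threshold without CIE rat 4 or CIE rat 6. *Kcnu1*, the Slo3 channel known from sperm, had 18 to 45 counts per rat and a log2FC of 0.44 (SE 0.30, edgeR adjusted p = 0.762), which was 0.66 and past the nominal threshold without Control rat 11 (adjusted p = 0.728).

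The inward rectifiers kept were 8 genes outside the GIRK group, with *Kcnj8* and *Kcnj10* set aside. They included the strong rectifiers *Kcnj2*, *Kcnj4*, *Kcnj12* and *Kcnj14*, the pore of ATP-sensitive channels *Kcnj11*, and *Kcnj16*, which joins the glial channel *Kcnj10*. *Kcnj11* was at 26.7 ± 5.05 CPM in the CIE and 25.9 ± 5.48 CPM in the Control group (SD, n = 6 each), and its log2FC was 0.04 (95% interval -0.27 to 0.36). *Kcnj14* had an interval of -0.23 to 0.18. Both intervals lie within 0.5 on either side of 0.

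*Kcnj16* ranged from 18.7 to 43.2 CPM in the CIE rats (median 30.7) and from 12.5 to 49.7 CPM in the Control rats (median 41.8). Low values were those of Control rat 10 and of CIE rats 1, 2 and 4, so the groups overlapped over most of the range. Over all rats its log2FC was -0.29 (SE 0.30, edgeR adjusted p = 0.857). It was -0.46 without Control rat 10 (adjusted p = 0.454), -0.57 and past the nominal threshold with limma-voom (adjusted p = 0.279), and 0.15 with both scores in the edgeR model. *Kcnj15* was scarce, with 9 to 93 counts per rat. It ranged from 0.386 to 0.861 CPM (median 0.788) and from 0.233 to 1.24 CPM (median 0.316). Control rat 7 was the highest of the 12 and 5 of the 6 CIE rats were above the other 5 Control rats. With Control rat 7 the log2FC was 0.57 (SE 0.41, edgeR adjusted p = 0.780), and without it 1.15, past the nominal threshold (adjusted p = 0.226). *Kcnj1*, the ROMK channel of the kidney, lay just inside the count rule with 1 to 32 counts per rat and a log2FC of 0.24 (SE 0.70).

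The tandem-pore leak channels formed the largest family, with 14 genes and log2FC values between -0.23 and 0.79. *Kcnk1* had the smallest p. It ranged from 44.0 to 59.0 CPM in the CIE rats (median 56.4) and from 43.3 to 59.4 CPM in the Control rats (median 45.6). CIE rats 1 to 4 were above the other Control rats but not above Control rat 10, the highest of the 12. Its log2FC of 0.17 (SE 0.10, edgeR adjusted p = 0.705) passed the nominal threshold without CIE rat 6 and without Control rat 10, where it was 0.24. *Kcnk18*, the TRESK channel of sensory neurons, had 1 to 59 counts per rat. It ranged from 0.210 to 0.849 CPM (median 0.455) and from 0.0258 to 0.489 CPM (median 0.296), with CIE rats 2 and 5 above every Control rat. Its log2FC of 0.79, the largest of the 77, had an interval of -0.27 to 1.86 (edgeR adjusted p = 0.730). *Kcnk7* (1 to 51 counts) and *Kcnk16* (1 to 58 counts), known from the pancreas, were as scarce, and their signs changed with the rats left out. Among the leak channels with more reads, *Kcnk4* and *Kcnk15* had intervals of -0.17 to 0.27 and -0.23 to 0.25.

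The cytoplasmic partners of Kv channels comprise the beta subunits, which bind Kv1 channels, and the KChIP calcium sensors, which bind Kv4 channels. Of the 4 KChIP genes, *Kcnip3* had the smallest p. It ranged from 41.0 to 57.8 CPM in the CIE rats (median 46.4) and from 40.4 to 49.2 CPM in the Control rats (median 42.0). CIE rats 2 and 4 were above every Control rat, and Control rat 12 stood above the other 5 Control rats. This difference, a log2FC of 0.17 (SE 0.09, 95% interval -0.02 to 0.36, edgeR adjusted p = 0.653), passed the nominal threshold without CIE rat 1, CIE rat 6 or Control rat 12. *Kcnrg*, a soluble protein that resembles the assembly domain of Kv channels and keeps them from assembling, ranged from 2.87 to 4.53 CPM (median 3.86) and from 2.95 to 5.83 CPM (median 4.60). Its groups overlapped, with a log2FC of -0.26 (SE 0.17, edgeR adjusted p = 0.739), which was -0.35 and past the nominal threshold without Control rat 10 (adjusted p = 0.397).

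The potassium channel genes varied more between rats of the same group than most genes did. The median within-group SD of log2 CPM was 0.350 over the 77 genes and 0.233 over all genes tested. A linear fit on the cortical and striatal marker scores accounted for a median of 56.6% of the within-group variance of the potassium channel genes and 27.8% of that of all genes. These shares describe 12 libraries and carry no test, and what moved both was not tested. In 12 potassium channel genes the share was above 80%, and how many of all genes tested were above it was not counted.

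These 12 genes, named after their values were seen apart from *Kcnab1* and *Kcnj16*, were *Kcnab1* (96.5%), *Kcnv1* (96.3%), *Kcnip2* (95.5%), *Kcna4* (94.5%), *Kcnj2* (93.1%), *Kcnh4* (92.4%), *Kcnj4* (92.3%), *Kcnk10* (90.5%), *Kcnj16* (86.4%), *Kcnq5* (85.9%), *Kcna5* (83.0%) and *Kcnk2* (81.9%). They include A-type channel parts (*Kcna4*, *Kcnab1*, *Kcnip2*), strong inward rectifiers (*Kcnj2*, *Kcnj4*), an M-current subunit (*Kcnq5*) and leak channels (*Kcnk2*, *Kcnk10*). *Kcnab1*, the beta subunit that speeds inactivation of Kv1 channels, was at 379.8 CPM in Control rat 10 and at 364 CPM in CIE rat 2. In the other Control rats it lay between 81.3 and 152 CPM and in the other CIE rats between 118 and 226 CPM. Its log2FC was 0.24 (SE 0.38, edgeR adjusted p = 0.913), turned to -0.06 without CIE rat 2 and became 0.72, past the nominal threshold, without Control rat 10.

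*Kcnip2*, a KChIP subunit, reached 142 CPM in Control rat 10 and 127 CPM in CIE rat 2. *Kcnj4* reached 133 and 121 CPM in these rats, and *Kcnh4* 30.5 and 33.5 CPM. In each of these genes CIE rat 4, with the next highest striatal score, followed them. *Kcnj16* and *Kcnk10* went the other way. *Kcnj16* was lowest in Control rat 10 (12.5 CPM) and next lowest in CIE rat 4 (18.7 CPM), and *Kcnk10* was at 5.22 CPM in Control rat 10 and at 6.41 CPM in CIE rat 2, below all other rats. *Kcne1l* did not follow the scores, with a share of 11.6%.

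**Figure D3:**
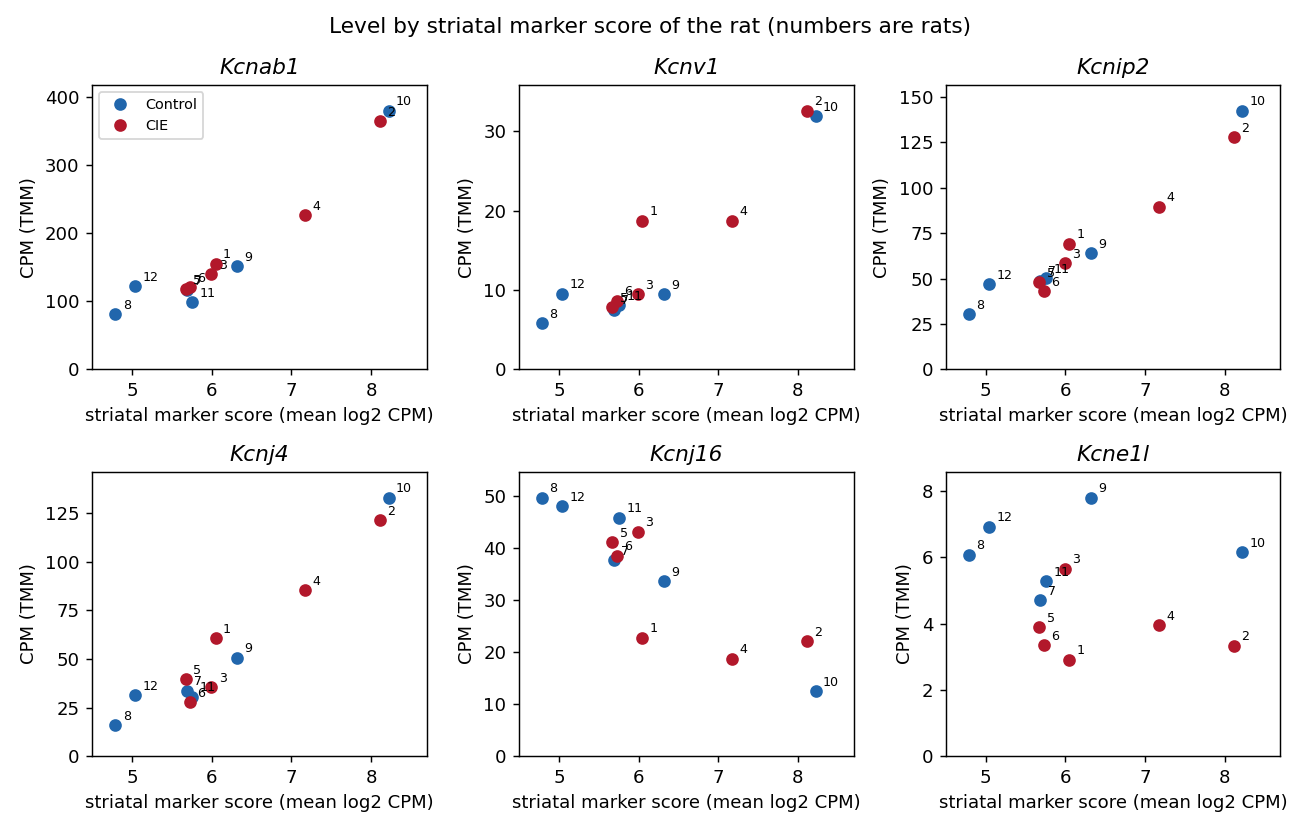
CPM (TMM-normalized, y axis from 0) of 6 potassium channel genes against the striatal marker score of each rat (mean log2 CPM of 10 markers), with Control rats in blue and CIE rats in red. *Kcnab1*, *Kcnv1*, *Kcnip2* and *Kcnj4* are highest in Control rat 10 and CIE rat 2, *Kcnj16* is lowest in Control rat 10, and *Kcne1l* is lower in 5 CIE rats than in every Control rat.

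Control rat 10 was the highest or lowest of the 12 rats in 26 of the 77 genes (33.8%, 12 highest and 14 lowest), compared with 26.1% of all genes. Control rat 8 was so in 21 (27.3%, 8 highest and 13 lowest), compared with 14.8% of all genes. Without Control rat 8 the count at the nominal threshold was 1, compared with 6.47% of all genes. Of the 15 genes that passed without Control rat 10, 10 were higher and 5 lower in the CIE group, and 0 passed 5% FDR with edgeR's quasi-likelihood test, compared with 0.339% of all genes. Without CIE rat 2 alone, the count at the nominal threshold was 1, compared with 7.4% of all genes. Without both rats, an analysis chosen after the values were seen, 11 genes passed (7 higher, 4 lower, 14.3%), compared with 8.81% of all genes. The higher ones were *Kcnt1*, *Kcng3*, *Kcnv1*, *Kcnk1*, *Kcnq3*, *Kcng1* and *Kcnab1*, and the lower ones *Kcne1l*, *Kcna3*, *Kcnh8* and *Kcnk3*. These 11 were also among the 15, and the other 4 were *Kcnj4*, *Kcnip2*, *Kcnk2* and *Kcnrg*. The cortical marker *Slc17a7* was at 348, 161 and 223 CPM in CIE rats 1, 2 and 4 and at 130.1 CPM in Control rat 10, and between 3.66 and 43.3 CPM in the other 8 rats. Its log2FC was 2.01 (95% interval -0.36 to 4.38, edgeR adjusted p = 0.682).

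With all 12 rats and both the cortical and striatal scores in the model, 3 of the 77 genes passed the nominal threshold (8.7% of all genes did). They were *Kcne1l*, *Kcnj2* (log2FC -0.32, edgeR adjusted p = 0.295) and *Kcnh6*, an Erg channel (log2FC 0.25, edgeR adjusted p = 0.545). The median SE of the 77 genes fell from 0.172 to 0.127 with the scores in the fit. The SE was smaller in 50 of the 77, and the sign of log2FC turned in 27. Neither was counted over all genes tested. Without the scores, *Kcnj2* had a log2FC of 0.06 and *Kcnh6* of 0.10.

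**Figure D4:**
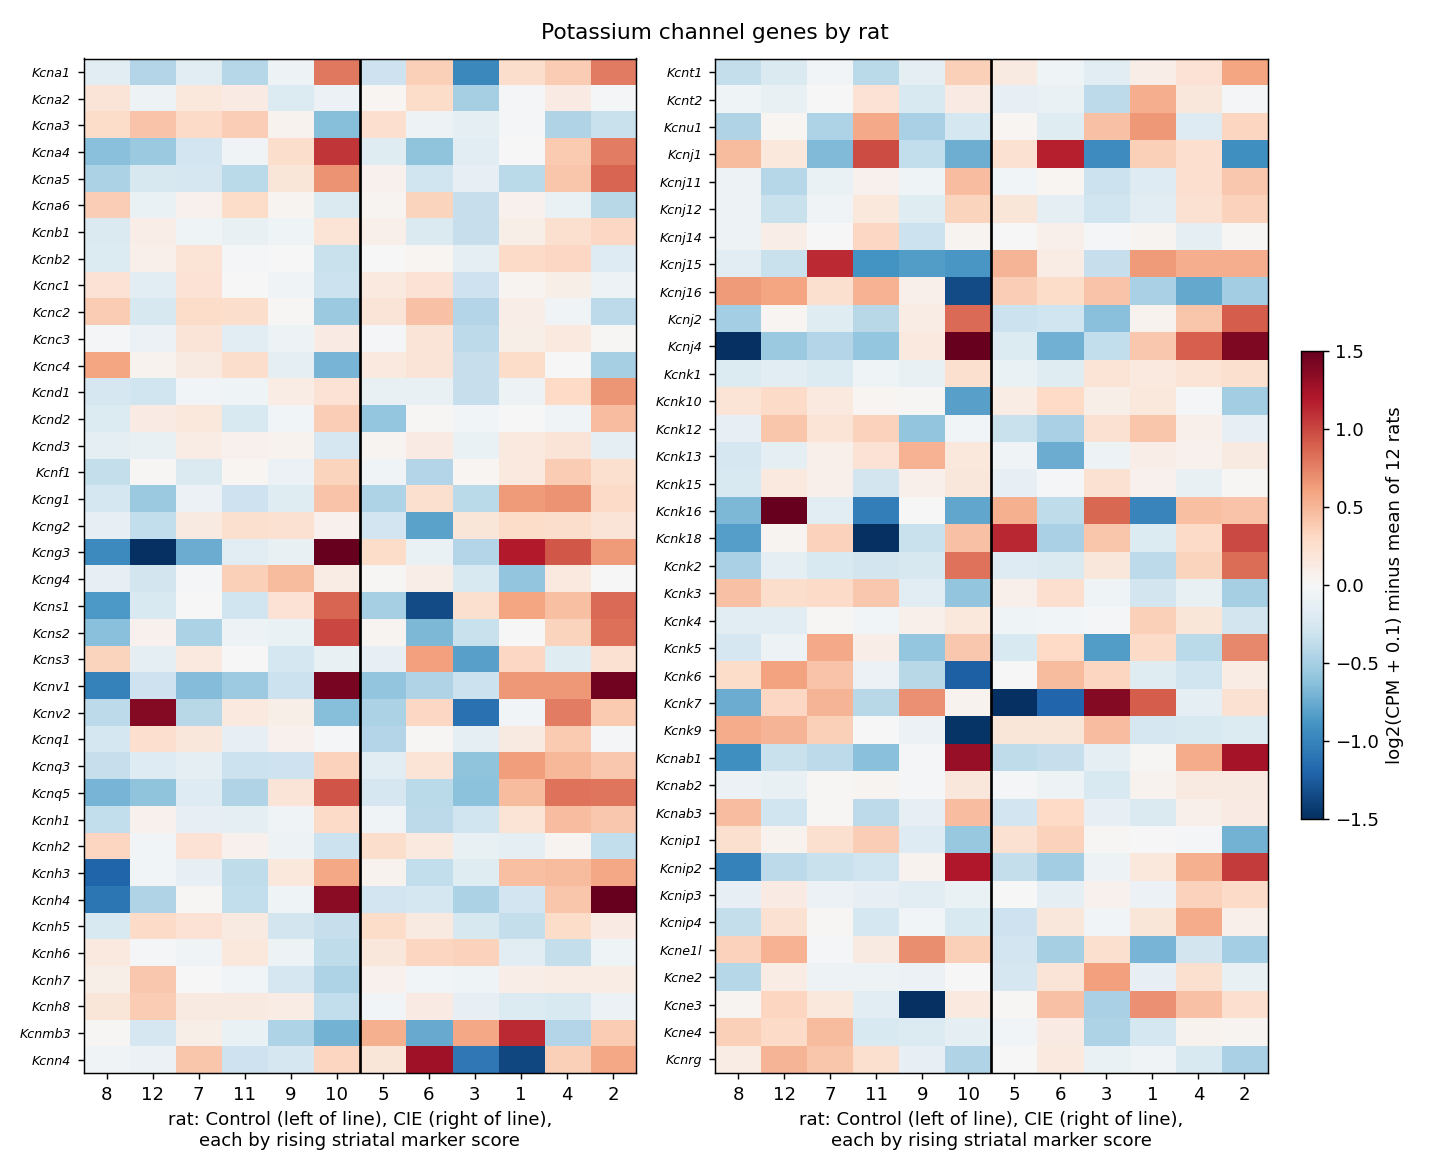
Level of 75 of the 77 potassium channel genes in each rat, as log2(CPM + 0.1) minus the mean of the 12 rats (colour, limited to 1.5 in either direction), with the Control rats left and the CIE rats right of the line, each ordered by rising striatal marker score. Control rat 10 and CIE rat 2, the last column of each group, share strong colours in many genes.

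**Figure D5:**
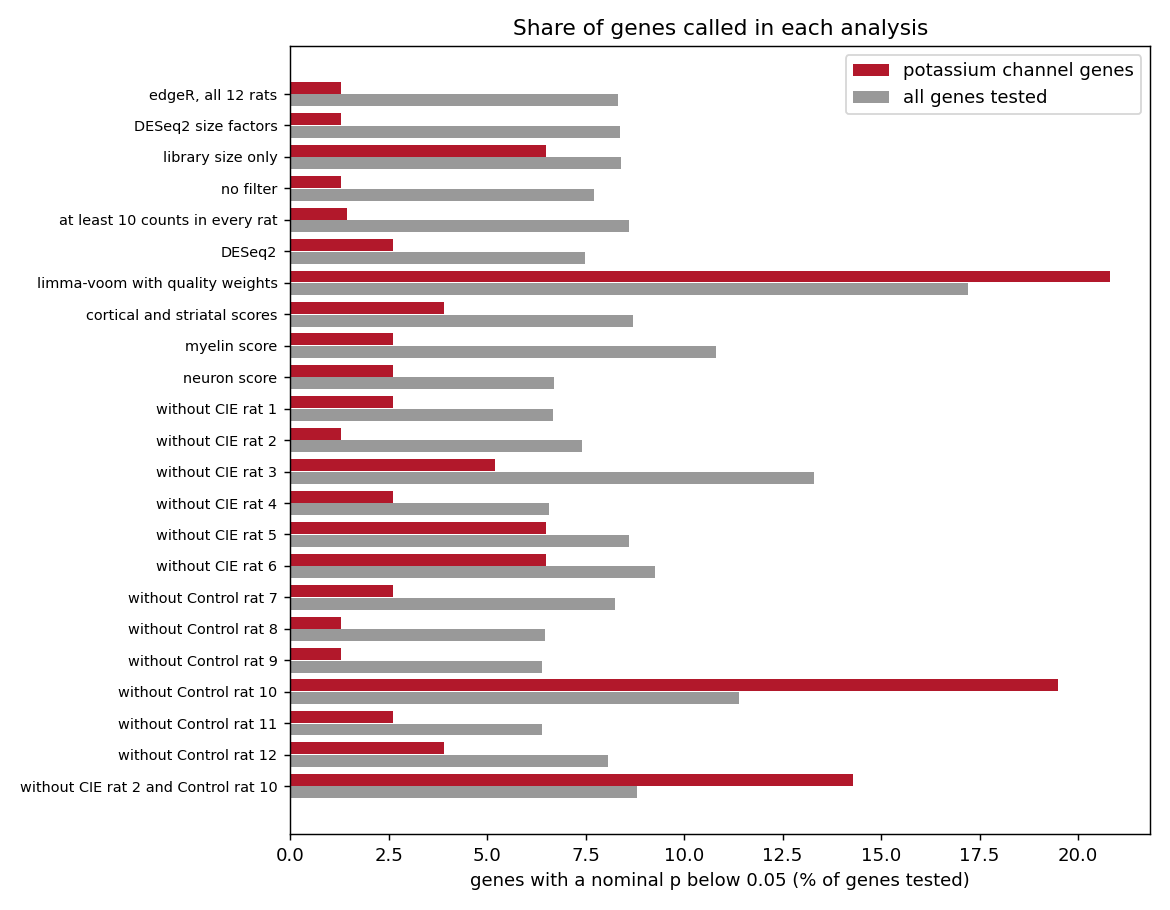
Share of genes with a nominal p below 0.05 (x axis, % of genes tested) among the potassium channel genes (red) and all genes tested (grey), for each of 23 analyses (y axis). The red bar exceeds the grey one only under limma-voom with quality weights and in the analyses without Control rat 10.

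Potassium channels work with anchoring and auxiliary proteins, and 19 genes of such proteins were compared beside them. They comprised Kv4 auxiliary subunits (*Dpp6*, *Dpp10*), Kv2 partners (*Amigo1*, *Vapa*, *Vapb*), proteins of axonal Kv1 complexes (*Cntnap1*, *Cntnap2*, *Cntn2*, *Lgi1*, *Adam22*), the Kv7 anchors *Ank3* and *Sptbn4*, the scaffolds *Dlg1* to *Dlg4*, the kinase anchor *Akap5* and the sulfonylurea receptors *Abcc8* and *Abcc9*. Of the 19, 1 passed the nominal threshold, compared with 8.31% of all genes, and none passed 5% FDR with edgeR's quasi-likelihood test, compared with 0.363% of all genes, and their median log2FC was 0.03.

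The gene that passed was *Abcc9*, the regulatory subunit of ATP-sensitive channels in vessel walls. It was at 11.2, 16.9, 12.4, 17.6, 10.6 and 20.3 CPM in CIE rats 1 to 6 and at 18.5, 23.8, 21.6, 24.0, 16.6 and 17.4 CPM in Control rats 7 to 12. CIE rats 1, 3 and 5 were below every Control rat and the other CIE rats overlapped the Control range. It had a log2FC of -0.45 (SE 0.16) and an adjusted p from edgeR's quasi-likelihood test of 0.443, and the exact permutation test gave p = 0.0325 (two-sided). With the myelin score in the model its log2FC was -0.22 and no longer past the nominal threshold. Of 7 mural cell markers tested, 3 were lower at nominal p below 0.05, and the sums of the list ranged from 127 to 205 CPM in the CIE rats and from 160.4 to 179 CPM in the Control rats. Of 9 endothelial markers tested, 4 were lower and none higher, with a median log2FC of -0.25 and sums of 196 to 264 CPM compared with 224 to 283 CPM. The part of mural and endothelial cells in the *Abcc9* result was not tested. *Abcc8*, the neuronal counterpart, had a log2FC of 0.30 (SE 0.15, edgeR adjusted p = 0.622).

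At the lower end of the count rule, the genes just inside it, *Kcnj1*, *Kcnk7* and *Kcnk16*, had as little as 1 count in a rat, and 11 of the 77 genes were below 1 CPM in both groups. Just outside it, *Kcna7* had 4 to 28 counts and reached 10 counts in 5 rats. *Kcna10* had at most 2 counts, and *Kcnj13* and *Kcnmb1* were at 0 in every rat. Counting error alone allows up to 3 counts for a 0 in 1 library, and fewer per library for a 0 in all 12. The annotation behind the counts is not given in the sources used here, so whether reads of these genes could have been counted was not tested.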

How the data were processed

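The authors sequenced poly-A RNA from CeA punches (all RIN values above 8.6), used BWA to align them to the Rnor_6.0 build and HTSeq to count reads for each gene. The deposited table holds raw counts of 37209 genes, 1 column per rat, with blank lines between gene lines. The gene annotation and the strand and overlap settings are not given in the sources used here, so reads of overlapping genes cannot be told apart. The authors tested the groups with DESeq2 1.26. The labels give no cage, extraction or sequencing batch, and CIE rats are numbered 1 to 6 and Control rats 7 to 12, so an effect of that order and CIE cannot be told apart.

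Counts were compared with edgeR's quasi-likelihood F test (edgeR 4.0.16, R 4.3.3), two-sided, with TMM normalization, filterByExpr and no covariates, fitted on all genes that passed the filter, with Benjamini-Hochberg adjustment over them. The SE equals the log2 fold change over the square root of its F value. Exact permutation tests of the 6 and 6 CPM values, descriptions and figures were made in Python 3.11.15 (pandas 2.3.3, numpy 2.4.6, matplotlib 3.10.9, scipy 1.17.1). The scripts were tested on simulated counts. No transcript lengths were used, so levels are not compared between genes. Over genes with at least 20 counts, any pair of libraries from the same group differed by 17.5 to 215 times what Poisson sampling gives. Each of the 12 was therefore treated as a separate sample, which does not show that the rats were independent. The paper states that the rats were group housed, and no cage is labelled, so an effect of cage was not tested.

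The genes, families, marker lists and tests were chosen with earlier results of these data known. Named genes are those with a nominal p below 0.05, without overlap of the groups, with the smallest p in a family, with the 5 highest or 5 lowest log2 fold changes or the 5 largest within-group spreads, and *Kcnq3* and *Kcne1l*. Others named were chosen after their values were seen. Of the 77 genes, 2 are in every fit and count but are not reported here one by one. The 21 alternatives were DESeq2 1.42.0, its size factors in edgeR, scaling by library size only, a filter of 10 counts in every rat, no filter, limma-voom (limma 3.58.1) with quality weights, 3 fits with marker scores as covariates (mean log2 CPM, with a prior count of 0.5) and leaving out each of 12 rats. Leaving out CIE rat 2 and Control rat 10 together was chosen after the data were seen. Promoter sequence came from RefSeq (GRCr8), in which 76 of the 77 genes matched by symbol and 1 by synonym. Only 49 of the 77 had a promoter entry, too few for a comparison over the genes.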

Additional observations from a re-analysis of the deposited data

Results flagged for a closer look

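In 20 cases, in 19 of the 77 potassium channel genes, 1 rat stood apart from the other 5 of its group by Dixon's criterion for 6 samples, which chance meets in about 1 in 20 groups. These are 13% of the 154 gene and group pairs, compared with 9.21% over all genes tested. Control rat 10 was high in 12 of them, with *Kcnab1* at 379.8 CPM, *Kcnk2* at 146 CPM, *Kcnip2* at 142 CPM, *Kcnj4* at 133 CPM, *Kcnq3* at 129.7 CPM, *Kcnk1* at 59.4 CPM, *Kcna1* at 43.7 CPM, *Kcnj2* at 33.5 CPM, *Kcnv1* at 31.9 CPM, *Kcnh4* at 30.5 CPM, *Kcns2* at 28.1 CPM and *Kcng3* at 6.13 CPM. It was low in *Kcnk10* (5.22 CPM). Control rat 12 was high in *Kcnip3* (49.2 CPM) and in the scarce *Kcnv2* (0.990 CPM) and *Kcnk16* (0.776 CPM), Control rat 7 was high in *Kcnj15* (1.24 CPM), and Control rat 9 was low in *Kcne3* (0.202 CPM). In the CIE group, rat 2 was high in *Kcnh4* (33.5 CPM) and rat 6 low in *Kcnk13* (9.61 CPM). Control rat 10 also had the highest striatal marker score (8.22), whose part in these values was not tested.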

How the results depend on the processing

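No paired analysis was possible because the groups share no replicate numbers. The count of potassium channel genes with a nominal p below 0.05 was 1 and moved to 5 with library size only (6.49%, all genes 8.39%), 2 with DESeq2 (2.6%, all genes 7.48%), 16 with limma-voom with quality weights (12 higher, 4 lower, 20.8%, all genes 17.2%), 3 with the cortical and striatal scores (3.9%, all genes 8.7%), 2 with the myelin score (2.6%, all genes 10.8%), 2 with the neuron score (2.6%, all genes 6.69%) and 11 without CIE rat 2 and Control rat 10 (14.3%, all genes 8.81%), and ranged from 1 to 15 (without Control rat 10) when each rat was left out. *Kcne1l* was among them each time. At 5% FDR the count was 0 with edgeR (all genes 0.363%), 1 with DESeq2 (all genes 1.41%) and 1 with limma-voom (all genes 1.12%). Over the fits without a single rat it was 0 to 1, with 1 without CIE rat 3 (all genes 0.449%). For the 19 partner genes the count was 1 (all genes 8.31%). It became 2 with DESeq2 size factors (all genes 8.37%), 3 with library size only (8.39%) and 2 with DESeq2 (7.48%). With limma-voom it was 6 (all genes 17.2%), and with the myelin score 3 (10.8%). Without CIE rat 2 and Control rat 10 it was 3 (all genes 8.81%). Leaving out each rat gave 1 to 5, with 5 without Control rat 10 (all genes 11.4%). The cause of these changes was not tested.

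The log2 fold change turned its sign in 27 of the 77 genes with the cortical and striatal scores, 22 with the myelin score, 14 with limma-voom, 10 with the neuron score, 5 without CIE rat 2 and Control rat 10, 2 with library size only, 1 with no filter, 0 with DESeq2, its size factors or the stricter filter, and in 40 in at least 1 fit without a single rat. Among the 22 genes named by rule, those that turned, none of them past the test with all rats, were with the cortical and striatal scores *Kcnab1* (-0.071), *Kcnc4* (0.012) and *Kcnj16* (0.15), with the myelin score *Kcnc4* (0.087), *Kcnip3* (-0.0027), *Kcnk16* (-1.18) and *Kcnk7* (-1.17), with the neuron score *Kcnc4* (0.032), *Kcnk16* (-0.0082) and *Kcnk7* (-0.20), with limma-voom *Kcnk7* (-0.56), and without CIE rat 2 and Control rat 10 *Kcnk16* (-0.21). Of the same 22, leaving out each rat turned *Kcnab1* (-0.059 to 0.72), *Kcnc4* (-0.20 to 0.039), *Kcnj1* (-0.30 to 0.61), *Kcnk16* (-0.20 to 1.23) and *Kcnk7* (-0.35 to 0.42). The scarce genes are limited by depth, with as little as 1 count in a rat. Sign turns were not counted over all genes tested, so these counts have no share to be compared with.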
